A study of Solanum lycopersicum with 24 samples.

Results

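The genes described here carried N1-methyladenosine (m1A) peaks in 6 to 11 of the 12 libraries of a tomato fruit series. m1A is adenosine with a methyl group on the face that pairs with other bases, so it blocks ordinary base pairing and adds a positive charge. It is abundant in tRNA and rRNA, where it supports folding, and much rarer in mRNA. In the assay, an antibody pulls down methylated RNA fragments, and a peak caller lists places where they pile up.

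A gene was a Solyc locus, taken from the transcript identifier, and it was called in a library when that library's mRNA list held at least 1 peak in it. The members were chosen by these calls, as the genes with a call in 6 to 11 libraries out of 12. That gave 46 genes. Of these, 4 were left out by name and 3 for peaks in a dense cluster on chromosome 11, which left 39 of the 1945 genes called in any library. How often each was called is therefore a description and not a result. Just inside the limits stood 13 genes called in 6 libraries (11 of them members) and 9 called in 11 (7 members). Just outside stood 12 genes called in 5 libraries and 61 called in all 12. Positions printed with a gene are those of its listed peaks and not the ends of the gene.

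The libraries form 4 groups of 3 biological replicates. Nr O and Nr G came from the homozygous ethylene receptor mutant Never-ripe (Nr), which is in the Ailsa Craig (AC) background, and AC Br+6 and AC MG from AC itself. Nr O (late fruit, orange) and AC Br+6 (late fruit, red) were picked 6 days past breaker, the first visible colour change, and Nr G and AC MG as green fruit about 39 days post-anthesis. The titles give only the letters O and G for the Nr groups. They were read as late and green because the series text calls late Nr fruit orange. No transgene or treatment is named for any group. Ethylene drives ripening in tomato, and Nr fruit perceive it poorly, so the design asks which methylation differs with stage and with ethylene perception.

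The lists give no read totals, so depth is unknown. Lists ran from 104 to 735 called genes, with the 3 shortest in Nr O and the 2 longest being AC Br+6 replicate 3 and AC MG replicate 1. Fruit was sampled in bulk, so fewer cells of a type and less RNA per cell cannot be told apart, and RNA levels were not analysed here. An absent call says only that no peak was listed. The fruit ripening genes E8, ACO1, PG2A and PSY1 were called in 4, 3, 3 and 2 libraries, none of them a member. The seed words vicilin, legumin, oleosin and late embryogenesis matched the descriptions of 0 called genes. Only 50.1% of called genes had a description, so seed genes among the others could not be found.

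Only 9 of the 39 genes (23.1%) had a description in the lists, against 50.1% of all called genes and 23.0% of the genes called in all 12 libraries. HSC80 (Solyc07g065840) encodes a heat shock cognate protein, a chaperone of the HSP90 family that folds signalling proteins. Solyc01g073650 and Solyc12g089090 encode a serine/threonine phosphatase and a probable protein phosphatase 2C, enzymes that remove phosphate groups from proteins. Solyc03g119780 encodes subunit 2 of TFIID, the complex that places RNA polymerase II at promoters, and Solyc01g107410 a homeodomain protein with a PHD finger, a module that binds histone tails in other plants and animals. Solyc04g009000 encodes a pentatricopeptide repeat protein, a family that binds RNA in organelles, and Solyc01g103580 the membrane protein DMP3. The other two, Solyc03g005030 and Solyc11g013850, are described as uncharacterized.

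By words in the descriptions, the 39 held 1 heat shock or chaperone gene of 32 called anywhere, 2 of 66 kinase, phosphatase or signalling genes and 1 of 43 RNA-binding or processing genes. The 1 hit among 67 translation genes was the TFIID gene, caught by the words initiation factor. Ubiquitin, photosynthesis, mitochondrial, transcription factor, transport, cell wall and redox words matched 0 members. Only the 9 described members could match, against 974 described genes called anywhere. The transcription factor words did not catch the homeodomain gene Solyc01g107410. Chromosome 1 held 14 of the 39 genes (35.9%), against 15.0% of all called genes, and chromosomes 8 and 10 held 0.

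**Figure D1:**
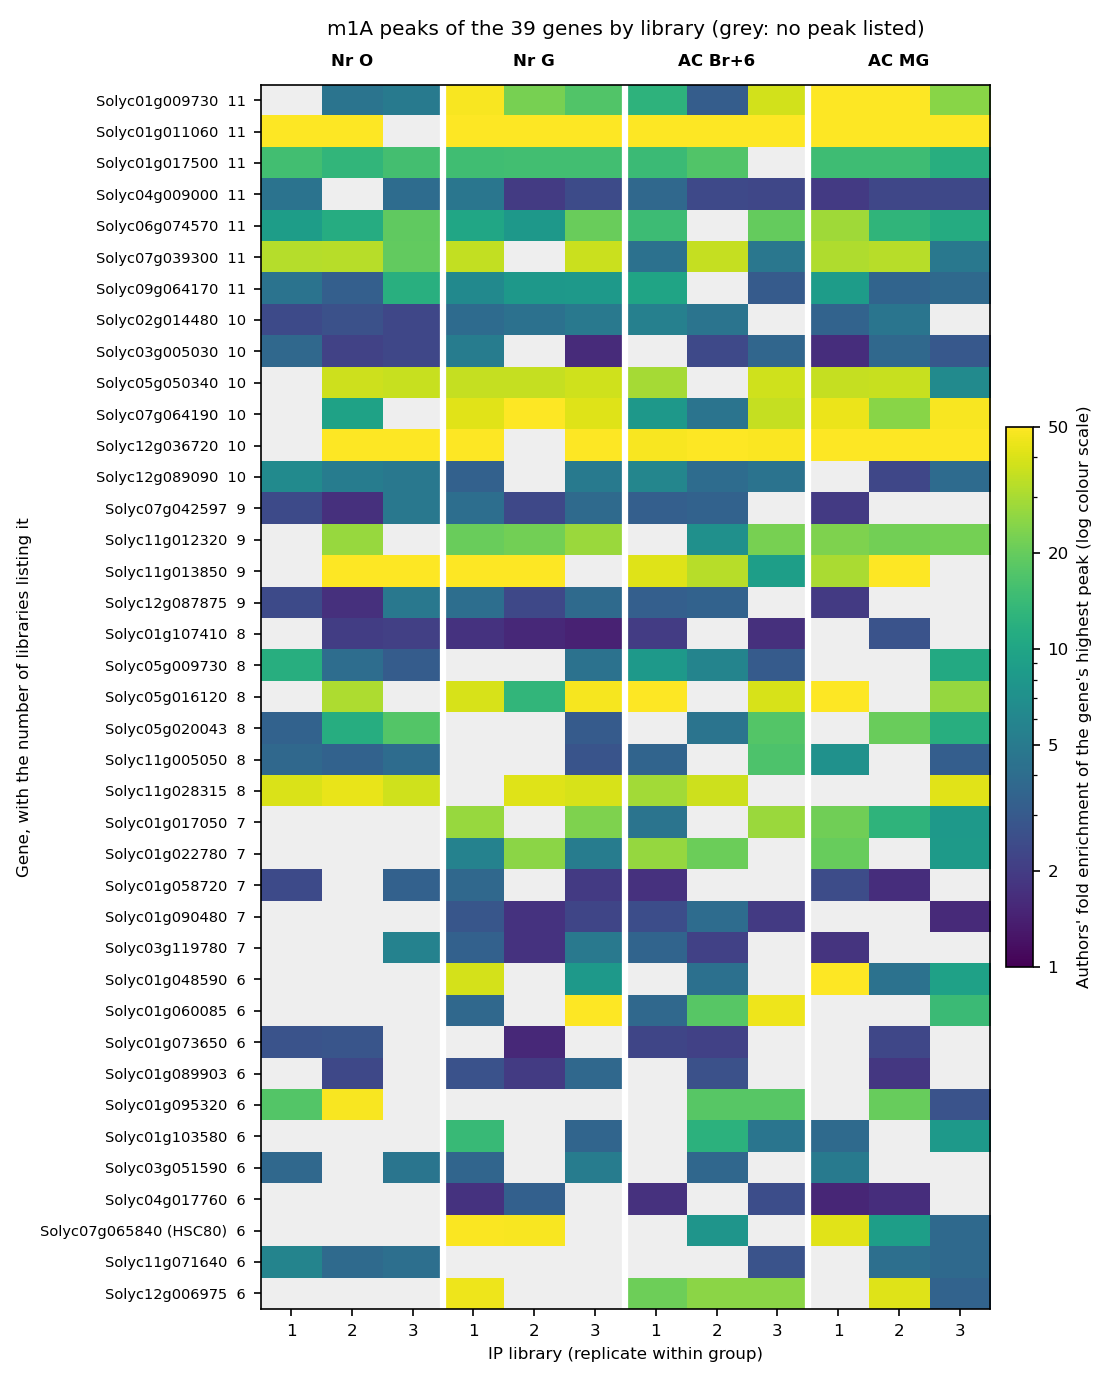
The 39 genes (rows, with the number of libraries listing each) in the 12 IP libraries (columns), coloured on a log scale by the authors' fold enrichment of the gene's highest peak; grey means that no peak was listed. In Nr O, 9 rows are grey in all 3 libraries, in Nr G 2, and in AC Br+6 and AC MG 0.

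Nr O lacked the most members. In it 9 genes had no peak in any of the 3 libraries, against 2 genes in Nr G, 0 in AC Br+6 and 0 in AC MG. Over all 1945 called genes, the share with no peak in a group was 90.1% in Nr O, 65.4% in Nr G, 53.4% in AC Br+6 and 55.6% in AC MG. Of the members, 20, 26 and 23 were called in the Nr O libraries, 32, 23 and 32 in Nr G, 29, 29 and 26 in AC Br+6, and 27, 27 and 28 in AC MG (replicates 1, 2 and 3). Nr O averaged 23.0 ± 3.0 and Nr G 29.0 ± 5.2, against 28.0 ± 1.7 in AC Br+6 and 27.3 ± 0.58 in AC MG (SD, n = 3 each). The Nr O and Nr G libraries overlapped at 23, and Nr O overlapped AC Br+6 at 26.

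Nr O had the shortest lists, 104, 141 and 121 called genes. AC Br+6 replicate 3, with 735, held 26 of the 39, and AC Br+6 replicate 1, with 173, held 29. Members made up 18.9% ± 0.41 of called genes in Nr O, 9.73% ± 0.81 in Nr G, 11.3% ± 6.9 in AC Br+6 and 9.12% ± 4.4 in AC MG (SD, n = 3 each). With only the 108 highest-scoring peaks of each list kept, the order turned. Nr O then averaged 16.3 members per library, Nr G 8, AC Br+6 6.67 and AC MG 7, and members with no peak in a group numbered 12, 27, 27 and 25. The length of 108 was that of the shortest list, Nr O replicate 1, so the Nr O lists were cut least. A score of 3100 is shared by 29.4% of all mRNA peaks, so in longer lists the cut may fall among peaks of equal score. The cut kept 49 of 69 member calls in Nr O, 24 of 87 in Nr G, 20 of 84 in AC Br+6 and 21 of 82 in AC MG. Fewer members in Nr O thus held for the full lists, and the cut cannot decide how this relates to list length.

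**Figure D2:**
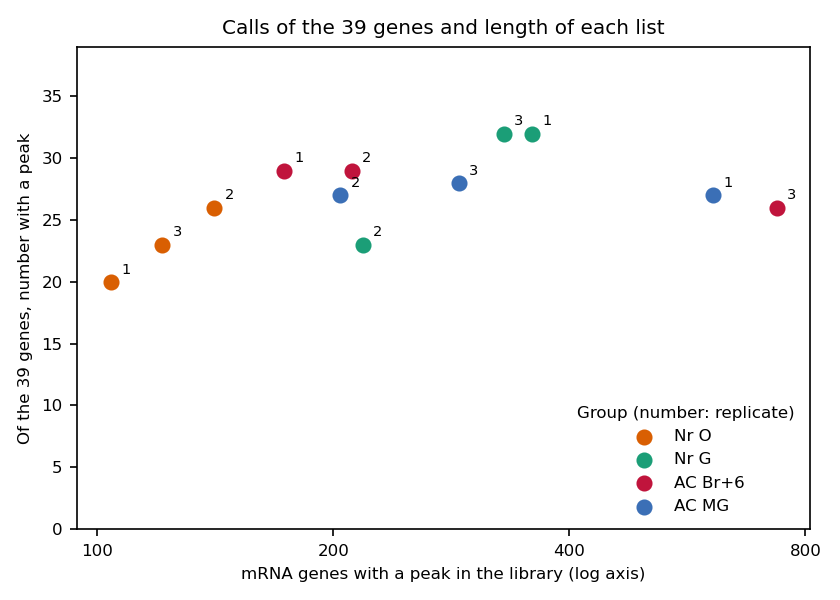
Number of the 39 genes with a peak (vertical axis) against the number of mRNA genes called in the same library (log axis); each point is 1 of 12 libraries, coloured by group and numbered by replicate. Nr O holds the shortest lists, with 20 to 26 of the genes, and the longest list, AC Br+6 replicate 3, holds 26.

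The 9 genes absent from Nr O were all called in only 6 or 7 libraries. A gene called in 10 or 11 cannot be absent from a whole group, so this is partly fixed by the rule. Of the 367 genes called in 2 to 5 libraries, 317 had no peak in Nr O, 172 in Nr G, 134 in AC Br+6 and 97 in AC MG. In the band of 16 members called in 6 or 7 libraries, Nr O made 13 of 48 possible calls, Nr G 30, AC Br+6 29 and AC MG 29. Among the 10 members called in 8 or 9 libraries the order differed, with 24 of 30 calls in Nr O, 22 in Nr G, 22 in AC Br+6 and 16 in AC MG. Among the 13 called in 10 or 11, the counts were 32, 35, 33 and 37 of 39. Since a gene's total is fixed within a band, a low count in 1 group goes with high counts elsewhere.

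HSC80, the chaperone gene, is on chromosome 7 with peaks between 67566963 and 67569469. No Nr O library listed it. Its highest peak had fold enrichments of 48.68 and 48.4 in Nr G replicates 1 and 2, 7.68 in AC Br+6 replicate 2, and 42.23, 8.98 and 3.81 in AC MG. These values mix 2 sites, since 42.23 and 3.81 come from a second site that Nr G did not list. At the first site AC MG replicates 1 and 2 had 7.72 and 8.98, and replicate 3 had no peak. With both sites counted, HSC80 was called in 1 of 6 late and 5 of 6 green libraries, which did not pass a two-sided Fisher test (exact p = 0.0801, adjusted p = 1 among 140 genes). Solyc01g048590 (chromosome 1, 44912789 to 44913022) had the same counts, p and adjusted p by stage, with 38.59 and 8.27 in Nr G replicates 1 and 3, 4.24 in AC Br+6 replicate 2, and 49.31, 4.39 and 9.35 in AC MG.

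Solyc12g006975 (chromosome 12, 1413087 to 1413541) was called in 1 of 6 Nr and 5 of 6 AC libraries. Its fold enrichment was 45.25 in Nr G replicate 1, 21.06, 25.18 and 25.27 in AC Br+6, and 41.17 and 3.45 in AC MG replicates 2 and 3. The genotype difference did not pass either (exact p = 0.0801, adjusted p = 0.979, same test). This gene was called in every AC Br+6 library and in no Nr O library.

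A pair of genes near one another in strength, Solyc01g017050 and Solyc01g022780, were each called in 7 libraries and in 0 of 3 Nr O libraries. Solyc01g017050 (chromosome 1, 23709811 to 23710128) had 27.21 and 23.51 in Nr G replicates 1 and 3, 4.51 and 27.67 in AC Br+6 replicates 1 and 3, and 21.38, 12.74 and 8.24 in AC MG. Solyc01g022780 (chromosome 1, 32868780 to 32868911) had 5.69, 25.51 and 5.2 in Nr G, 27.07 and 20.66 in AC Br+6 replicates 1 and 2, and 20.24 and 8.37 in AC MG replicates 1 and 3. The AC Br+6 values of Solyc01g017050 overlapped those of both green groups, and the Nr G values of Solyc01g022780 overlapped those of both AC groups.

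Solyc01g060085 (chromosome 1, 69495675 to 69496068) had 3.73 and 50 in Nr G replicates 1 and 3, 3.76, 18 and 45.11 in AC Br+6, and 14.4 in AC MG replicate 3. It thus spanned nearly the whole scale within 1 group. The DMP3 gene Solyc01g103580 (chromosome 1, 92030293 to 92030482) had 13.87 and 3.57 in Nr G replicates 1 and 3, 12.44 and 4.57 in AC Br+6 replicates 2 and 3, and 3.89 and 8.12 in AC MG replicates 1 and 3. Its groups overlapped.

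The last of the genes absent from Nr O had weak peaks. Solyc01g090480 (chromosome 1, 84040489 to 84040587) had 2.84, 1.77 and 2.27 in Nr G, 2.51, 3.97 and 1.94 in AC Br+6 and 1.6 in AC MG replicate 3. Solyc04g017760 (chromosome 4, 8077952 to 8078035) had 1.78 and 3.34 in Nr G replicates 1 and 2, 1.75 and 2.52 in AC Br+6 replicates 1 and 3, and 1.53 and 1.67 in AC MG replicates 1 and 2. The lowest values of the 2 genes, 1.6 and 1.53, lie near the lowest fold enrichments that the lists hold, which ran from 1.18 to 1.71 by library. Their highest values, 3.97 and 3.34, lie above that range.

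Absent from every Nr G library were 2 genes. Solyc11g071640 (chromosome 11, 55351145 to 55351156) had 5.81, 3.89 and 4.18 in Nr O, 2.74 in AC Br+6 replicate 3, and 4.18 and 3.81 in AC MG replicates 2 and 3. It was the 1 member called in 3 of 3 libraries of one Nr stage and 0 of 3 of the other with the late stage having the calls. Solyc01g095320 (chromosome 1, 86504563 to 86508726) had 17.44 and 48.28 in Nr O replicates 1 and 2, 18.19 and 18.06 in AC Br+6 replicates 2 and 3, and 20.21 and 2.71 in AC MG replicates 2 and 3. These are its highest peaks, and they come from different sites. At the site listed in Nr O, AC Br+6 replicate 2 had 3.22 and AC MG replicate 2 had no peak. Nr G replicates 2 and 3 and AC MG replicate 1, which lacked Solyc01g095320, listed peaks within 1000 bases under another locus, Solyc01g095305.

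For each pair of groups, a gene was counted as a switch when one group had a peak in 2 or 3 of its libraries and the other in 0 of 3; there is no test per gene, and the 4 comparisons share groups. Nr O against Nr G had 8 members with peaks in Nr G only (20.5% of 39, where 7.06% of the 751 genes called in either group did so) and 2 with peaks in Nr O only (5.13%, against 0.666%). The 8 were the genes absent from Nr O other than Solyc12g006975, and the 2 were Solyc11g071640 and Solyc01g095320. A member is called in at least 6 libraries and most other genes in 1, so members had more chance to meet the rule. Without Nr G replicate 1 the 8 became 2, and without Nr G replicate 3 they became 4 and the 2 became 5. Without Nr O replicate 1 or 2 the 2 became 1. At equal list length the balance turned, to 2 with peaks in Nr G only and 13 with peaks in Nr O only, but 12 of those 13 had a Nr G peak in the full lists.

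Nr O against AC Br+6 had 7 members with peaks in AC Br+6 only (17.9% of 39, where 4.18% of 981 genes did so) and 0 with peaks in Nr O only (background 0.204%). They were Solyc01g017050, Solyc01g022780, Solyc01g060085, Solyc01g090480, Solyc01g103580, Solyc04g017760 and Solyc12g006975, and 3 of them were called in all 3 AC Br+6 libraries. Without AC Br+6 replicate 1 or 3 the 7 became 4, and without any one AC Br+6 library the 0 became 1. At equal list length these counts were 1 and 11, and all 11 had an AC Br+6 peak in the full lists.

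Green fruit of the 2 genotypes, Nr G against AC MG, differed at 2 members with peaks in AC MG only (5.13%, where 3.2% of 1311 genes did so), Solyc01g095320 and Solyc11g071640, and at 0 with peaks in Nr G only (background 1.83%). Without AC MG replicate 2 or 3 the 2 became 0, and without Nr G replicate 3 they became 4. The 0 became 4, 2 and 3 without AC MG replicates 1, 2 and 3. In wild-type ripening, AC Br+6 against AC MG, 0 members had peaks in AC Br+6 only (background 1.33% of 1500 genes) and 0 in AC MG only (1.87%). These became 3, 2 and 4 in AC Br+6 only without AC MG replicates 1, 2 and 3, and 1, 2 and 1 in AC MG only without AC Br+6 replicates 1, 2 and 3.

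Stage and genotype were then tested over all 12 libraries, 6 against 6, for the 140 genes called in 3 to 9 libraries, 26 of them members. For late against green fruit 0 of 140 genes (0%) passed the two-sided Fisher exact test after Benjamini-Hochberg adjustment, and 0 had an unadjusted p under 0.05. For Nr against AC 0 of 140 (0%) passed, and 1 gene, no member, had an unadjusted p under 0.05. These zeros were nearly fixed by the design. For 110 of the 140 genes, and 10 of the 26 members, the smallest p that the number of calls allows was above 0.05. A gene called in 6 libraries could reach 0.00216, which for 1 gene alone adjusts to 0.303, so at least 7 genes at that p were needed for any to pass. The 13 members called in 10 or 11 libraries were not tested, since their smallest p is 0.455 or 1.

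The lowest exact p among members, 0.0606 (adjusted p = 1), was that of Solyc05g009730 for stage, and it is the smallest that a gene called in 8 libraries can have, so the gene could not pass. This gene (chromosome 5, 3944214 to 3944453) was called in 6 of 6 late and 2 of 6 green libraries. Its fold enrichment was 11.63, 4.04 and 3.14 in Nr O, 4.38 in Nr G replicate 3, 8.27, 5.83 and 3.09 in AC Br+6 and 10.83 in AC MG replicate 3. The levels at late and green stages overlapped where peaks were listed. Over the 39 genes, 12 had more late calls, 20 more green calls and 7 as many of each, with a median difference of -1 call, late minus green. The 26 members tested had more late calls in 10, more green calls in 12 and as many of each in 4 (median 0), against 30, 94 and 16 of all 140 genes tested (median -1). By genotype 12 of the 39 genes had more Nr calls, 18 more AC calls and 9 as many of each (median 0). Among the 26 tested the counts were 8, 12 and 6 (median 0), against 31, 89 and 20 of the 140 genes (median -1).

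By the authors' fold enrichment, pooled over the libraries, the median of the 342 peaks of the 39 genes was 7.87, against 14.4 for all 3852 mRNA peaks, 32.4 for genes called in all 12 libraries and 11.9 for genes called in 1 to 5. These values come from the same peak calling as the calls, so the order is a description. The 39 genes fell into a strong and a weak class, with 19 at a median fold enrichment of 10 or more, 4 from 5 to under 10 and 16 under 5. The median over genes was 5.26 for those called in 6 or 7 libraries, 8.35 for those called in 8 or 9 and 15.1 for those called in 10 or 11, with overlapping ranges.

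**Figure D3:**
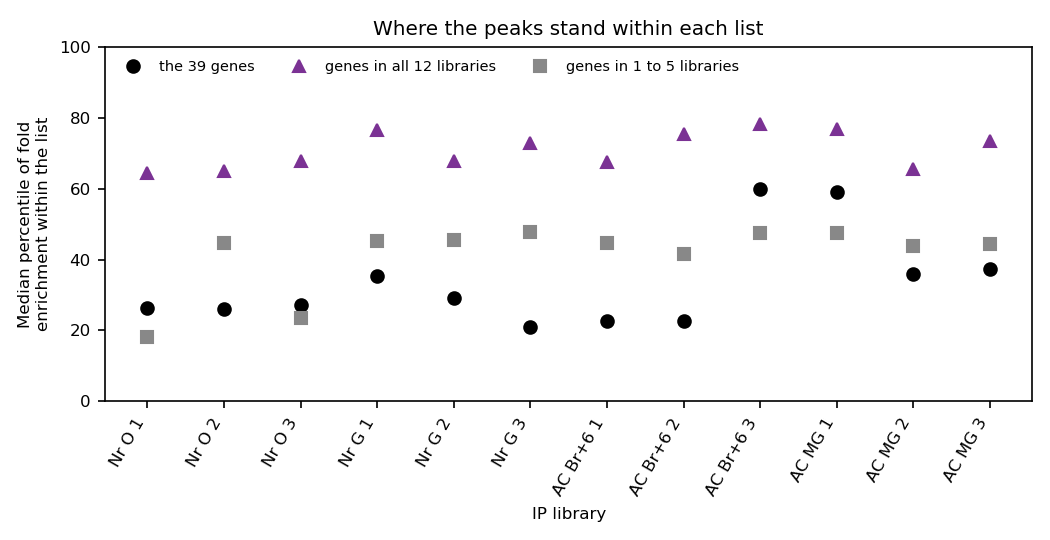
Median percentile of fold enrichment within its own list (vertical axis, 100 highest) for the 39 genes, for genes called in all 12 libraries and for genes called in 1 to 5, in each of the 12 libraries. The 39 genes lie between 20.9 and 37.4 in 10 libraries and at 60.03 and 58.9 in the 2 with the longest lists, AC Br+6 replicate 3 and AC MG replicate 1.

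Within the lists, the median member stood between the 20.9th and 37.4th percentile in 10 libraries. It stood at 60.03 in AC Br+6 replicate 3 and 58.9 in AC MG replicate 1. Genes called in all 12 libraries stood between 64.4 and 78.2, above the members in every list. Genes called in 1 to 5 stood above the members in 8 lists and below them in 4. The 4 were Nr O replicate 1 (members 26.4, genes in 1 to 5 libraries 18.3), Nr O replicate 3 (27.3 and 23.6), AC Br+6 replicate 3 (60.03 and 47.4) and AC MG replicate 1 (58.9 and 47.5). Every library listed strong and weak members. A gene's class came only from the libraries that listed it, so strong genes absent from Nr O were classed by the other groups alone. The counts by class are therefore a description, and the same split of all called genes is not given here. The 19 strong genes had 30 of 57 possible calls in Nr O, 43 in Nr G, 45 in AC Br+6 and 47 in AC MG. The 16 weak genes had 33 of 48 in Nr O, 36 in Nr G, 31 in AC Br+6 and 26 in AC MG. Whether the classes differ in this was not tested. Among strong genes, Nr O replicate 2 with 14 lay within the range of Nr G (12 to 16) and of AC MG (14 to 18). It lay below every AC Br+6 library (15 in each). Nr O replicates 1 and 3 with 7 and 9 lay below every other library.

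**Figure D4:**
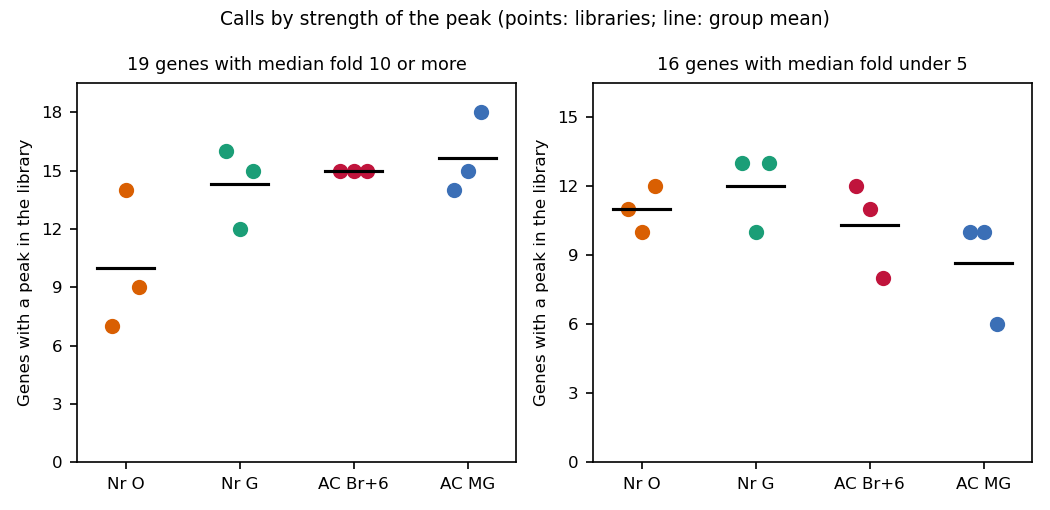
Number of strong genes (left, 19 genes with a median fold enrichment of 10 or more) and weak genes (right, 16 genes under 5) with a peak in each library; points are libraries and lines are group means. Strong genes number 7, 14 and 9 in Nr O and 12 to 18 elsewhere, while weak genes number 10 to 12 in Nr O and 6 to 13 elsewhere. The class of a gene comes only from the libraries that list it.

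Some absences concerned peaks that were strong wherever they were listed. Of the 146 absent pairs of a gene and a library, 12 belonged to genes whose lowest value elsewhere was above 10. Solyc01g011060 (chromosome 1, 6986611 to 6986623) lay between 49.85 and 50 in 11 libraries and was not listed in Nr O replicate 3. Solyc12g036720 (chromosome 12, 47783835 to 47784045) lay between 48.43 and 49.95 in 10 and was not listed in Nr O replicate 1 and Nr G replicate 2. Solyc11g028315 (chromosome 11, 21339638 to 21339679) had 40.27, 43.81 and 37.95 in Nr O, 41.46 and 39.54 in Nr G replicates 2 and 3, 28.88 and 36.95 in AC Br+6 replicates 1 and 2, and 42.17 in AC MG replicate 3.

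Solyc05g016120 (chromosome 5, 14612729 to 14613193) had 31.09 in Nr O replicate 2, 39.3, 13.15 and 47.71 in Nr G, 49.55 and 39.33 in AC Br+6 replicates 1 and 3, and 49.85 and 26.95 in AC MG replicates 1 and 3. It is the second gene of this kind with 4 absences, and both had some in 3 groups. The fifth, Solyc01g017500 (chromosome 1, 23878571 to 23878917), was absent from AC Br+6 replicate 3. That library listed a peak of fold enrichment 12.34 from 23878619 to 23878787 under another locus, Solyc01g017485, which overlapped the gene's own peaks but had other ends. No other absence had a listed mRNA, lncRNA or circRNA peak inside the span of the gene's own listed peaks. That span was as short as 3 bases (Solyc03g119780), and the ends of the genes were not used. A further 3 absences, all of Solyc01g095320, had a peak within 1000 bases of that span, under Solyc01g095305.

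Solyc11g013850, uncharacterized (chromosome 11, 7266895 to 7267057), reached the ceiling of 50 in Nr O replicates 2 and 3 and in Nr G replicates 1 and 2. It had 41.61, 32.83 and 8.92 in AC Br+6 and 30.41 and 50 in AC MG replicates 1 and 2. Its 4 Nr values were thus at the ceiling, and 1 of its 5 AC values was. Solyc05g050340 (chromosome 5, 61305699 to 61305866) had 36.96 and 36.08 in Nr O replicates 2 and 3, 35.23, 35.54 and 37.85 in Nr G, 29.58 and 37.91 in AC Br+6 replicates 1 and 3, and 35.31, 36.25 and 6.52 in AC MG. All but the AC Br+6 replicate 1 and AC MG replicate 3 values lay between 35.23 and 37.91.

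Among the 7 genes called in 11 libraries, Solyc01g009730 (chromosome 1, 3982529 to 3982582) varied most. It had 4.51 and 5.02 in Nr O replicates 2 and 3, 48.36, 22.56 and 17.35 in Nr G, 12.53, 3.18 and 38.3 in AC Br+6, and 49.92, 50 and 24.98 in AC MG. Both Nr O values lay below every Nr G value, and AC Br+6 overlapped AC MG. Solyc07g064190 (chromosome 7, 66560969 to 66571531), called in 10, had 9.48 in Nr O replicate 2, 41.74, 49.9 and 41.45 in Nr G, 8.02, 4.5 and 35.57 in AC Br+6, and 44.64, 24.92 and 48.3 in AC MG. These are its highest peaks. At the peak start that all 10 libraries share, 66560969, AC MG replicate 1 had 43.56 and AC MG replicate 2 had 7.44, so late and green values overlapped there. Both genes were picked out after their values were seen, and fold enrichments were not tested between libraries.

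Solyc07g039300 (chromosome 7, 47013169 to 47013351) had 32.36, 32.61 and 19.46 in Nr O, 34.85 and 36.7 in Nr G replicates 1 and 3, 4.31, 35.71 and 4.69 in AC Br+6 and 31.28, 32.87 and 4.8 in AC MG. Its 3 values under 5 were all in AC. Solyc06g074570 (chromosome 6, 46279248 to 46280420) ranged from 8.04 to 28.44 and lacked AC Br+6 replicate 2, as did Solyc09g064170 (chromosome 9, 61526765 to 61526947), which ranged from 3.09 to 11.72. Solyc01g017500 ranged from 11.6 to 17.3 over its 11 libraries. The pentatricopeptide repeat gene Solyc04g009000 (chromosome 4, 2581273 to 2581472) was the weakest of the 7, between 1.94 and 4.62, and lacked Nr O replicate 2.

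The remaining described genes were weak. The phosphatase 2C gene Solyc12g089090 (chromosome 12, 65195283 to 65195483) had 6.5, 5.13 and 4.81 in Nr O, 3.38 and 5.03 in Nr G replicates 1 and 3, 6.02, 3.97 and 4.46 in AC Br+6 and 2.3 and 3.94 in AC MG replicates 2 and 3. The phosphatase gene Solyc01g073650 (chromosome 1, 80903164 to 80903364) had 2.74 and 2.8 in Nr O replicates 1 and 2, 1.57 in Nr G replicate 2, 2.26 and 2.12 in AC Br+6 replicates 1 and 2 and 2.3 in AC MG replicate 2. In Solyc12g089090 the Nr O and Nr G values overlapped, and in Solyc01g073650 both Nr O values lay above the single Nr G value.

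The TFIID gene Solyc03g119780 (chromosome 3, 69838439 to 69838441) had 5.65 in Nr O replicate 3, 3.38, 1.77 and 4.87 in Nr G, 3.51 and 2.12 in AC Br+6 replicates 1 and 2 and 1.81 in AC MG replicate 1. The homeodomain gene Solyc01g107410 (chromosome 1, 94876226 to 94876425) lay between 1.46 and 2.72 in 8 libraries, and the uncharacterized Solyc03g005030 (chromosome 3, 36202 to 36581) between 1.62 and 5.16 in 10. Of the undescribed genes not yet named, Solyc01g058720, Solyc01g089903 and Solyc03g051590 stayed between 1.67 and 5.19. Solyc05g020043 (chromosome 5, 26064299 to 26064360) had 3.42, 11.5 and 17.58 in Nr O, 3.08 in Nr G replicate 3, 4.5 and 17.49 in AC Br+6 replicates 2 and 3 and 20.47 and 11.69 in AC MG replicates 2 and 3. Over the 39 genes, values differed by more than 10-fold between libraries in 7 genes and by no more than 2-fold in 8.

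Of the 39 genes, 2 had the same numbers. Solyc07g042597 (chromosome 7, 56188416 to 56188615) and Solyc12g087875 (chromosome 12, 64365340 to 64365463) were called in the same 9 libraries, all 6 of Nr and 3 of 6 of AC, with the same fold enrichment and score in each of the 9. Their fold enrichments were 2.39, 1.71 and 4.81 in Nr O, 4.09, 2.35 and 3.89 in Nr G, 3.26 and 3.44 in AC Br+6 replicates 1 and 2, and 1.94 in AC MG replicate 1. No other pair with a member shared both values, at scores under 3100, in more than 2 libraries. The pair lies on different chromosomes and may not be 2 independent records, so counted once the set holds 38 genes. Each had a two-sided Fisher exact p of 0.182 for genotype (adjusted p 0.979), the smallest that 9 calls allow.

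Most members were marked at 1 place. A single site, with no gap between the peaks of different libraries, held all peaks of 32 genes, and 24 (61.5%) had the same peak start in every library. The share with 1 start was 60.7% for genes called in all 12 libraries and 17.7% for genes called in 2 to 5. In 29 genes every library had a peak overlapping the most frequent one by at least 50% reciprocally, and 16 of the 39 had one of identical start and end. Of 208 peaks with the same library, name, score and fold enrichment in the mRNA and circRNA lists, 190 (91.3%) had another start or end in the second list, and of the 15 such peaks of members 14 did. Peak lengths of a few bases, such as 2 or 3 for the TFIID gene, 7 in 5 of 6 libraries for Solyc04g017760 and 9 to 13 for Solyc01g011060, are far under the length of an RNA fragment, and 11.1% of member peaks were under 50 bases, against 7.94% of all mRNA peaks.

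**Figure D5:**
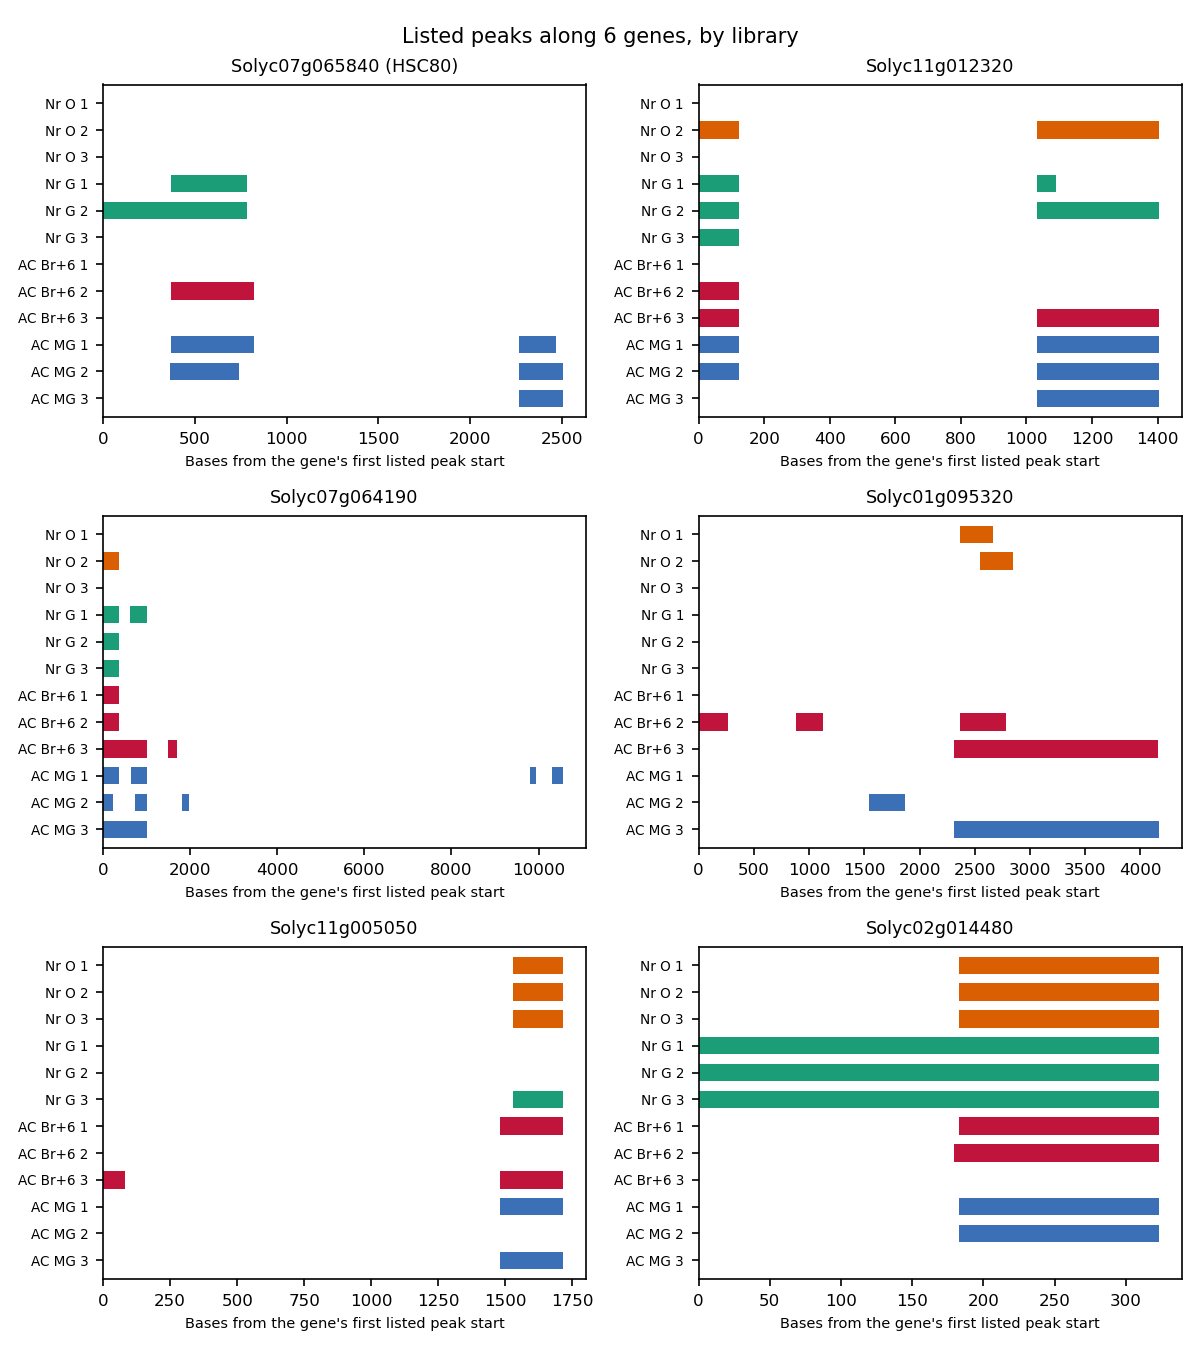
Listed peaks (bars) along 6 genes in the 12 libraries (rows, coloured by group), as bases from the gene's first listed peak start. HSC80 has a second site in the 3 AC MG libraries alone, and in Solyc11g005050 the last site starts 49 bases later in the 4 Nr libraries than in the 4 AC libraries that list it.

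In HSC80 a first site (67566963 to 67567784) was listed in 2 Nr G, 1 AC Br+6 and 2 AC MG libraries. A second site (67569229 to 67569469) was listed in every AC MG library and in 0 of the 9 others, with fold enrichments of 42.23, 8.36 and 3.81. Solyc11g012320 (chromosome 11) also had 2 sites, at 5177522 to 5177645 and 5178553 to 5178924. The first was listed in 1 Nr O, 3 Nr G, 2 AC Br+6 and 2 AC MG libraries and the second in 1, 2, 1 and 3. Its highest fold enrichment was 27.33 in Nr O replicate 2, 20.38, 21.73 and 27.7 in Nr G, 7.15 and 22.31 in AC Br+6 replicates 2 and 3, and 23.55, 21.9 and 21.97 in AC MG. AC MG replicate 3 had the second alone, and Nr G replicate 3 and AC Br+6 replicate 2 the first alone.

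In Solyc11g005050 (chromosome 11, 50465 to 52179) the last site ended at 52179 in all 8 libraries that listed it. It started at 51995 in 3 Nr O libraries and 1 Nr G library, and at 51946 in 2 AC Br+6 and 2 AC MG libraries. The gene's fold enrichment was 3.76, 3.42 and 3.98 in Nr O, 2.76 in Nr G replicate 3, 3.51 and 16.8 in AC Br+6 replicates 1 and 3, and 7.22 and 3.2 in AC MG replicates 1 and 3, so the groups overlapped except for the single Nr G value, the lowest. In Solyc02g014480 (chromosome 2, 17115624 to 17115946) the peak was 323 bases long in all 3 Nr G libraries, against 140 or 144 in the 3 Nr O, 2 AC Br+6 and 2 AC MG libraries that listed it. Its fold enrichment was 2.39, 2.64 and 2.3 in Nr O, 3.91, 4.32 and 4.87 in Nr G, 5.52 and 4.5 in AC Br+6 replicates 1 and 2 and 3.47 and 4.6 in AC MG replicates 1 and 2. The Nr O values lay below all others. These genes were chosen after their positions were seen, and positions were not tested.

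Solyc07g064190 had 5 sites over 10563 bases, of which the first (66560969 to 66561979) was listed in 1 Nr O, 3 Nr G, 3 AC Br+6 and 3 AC MG libraries and each of the others in 1 library. Solyc01g095320 had 4 sites over 4164 bases, and the last (86506873 to 86508726) was listed in 2 Nr O, 0 Nr G, 2 AC Br+6 and 1 AC MG library. AC MG replicate 2 listed Solyc01g095320 only at another site, 86506107 to 86506434, so the calls of this gene rest on different places, while all 10 calls of Solyc07g064190 include the first site. In the circRNA lists, Solyc07g064190 shared 9 peaks in 5 libraries with 1 circle, and Solyc12g006975 shared its peak in all 6 of its libraries with another. No member peak was in the lncRNA lists.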

How the data were processed

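Per the labels' protocols, RNA was fragmented, immunoprecipitated with an m1A antibody, treated with alkali and made into whole-RNA libraries; input RNA was treated alike, and the 12 inputs were not analysed here. Tools named are HISAT2 2.0.4 and cutadapt 1.9.3, per the submitters' processing notes. Peak names begin with MACS; its settings and control are not stated in the labels or headers. Replicates were called separately, 1 list per IP library and RNA class, and each list was tied to its library by the name the authors gave it. The deposited fold enrichment is a ratio from the authors' peak caller, with a ceiling of 50. Per the file headers, the authors' score is the p-value as negative log10, multiplied by 10. The FDR column reads 100 throughout and was not used.

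Calls per gene were counted from the mRNA lists. Scaffold names in the circRNA lists give the build as SL3.00, and positions are 1-based. All 9 described members were found in the reference table, which is of another assembly and gave names alone. No genome or sequence table of the files' build was used here, so position in exons or UTRs was not analysed. Genes called in 3 to 9 libraries entered a two-sided Fisher exact test (SciPy 1.17.1) with p-values adjusted over all 140. The code was tested on simulated data with many strong planted differences, which does not measure its power in these lists. Replicate numbers were not found to pair libraries. Correlations of deviations from group means ran from -0.0669 to 0.0722 for same-numbered pairs (median 0.0134). For pairs of other numbers they ran from -0.107 to 0.0891 (median -0.00777). Alternatives were keeping only peaks from the median fold enrichment (14.4) or score (856) upwards, lists cut to the 108 highest-scoring peaks, each library left out, and a block by replicate number. Genes named are members absent from a whole group, called in 11 libraries, described, among the 5 strongest, 5 weakest or 5 widest, of 1 exact position in most libraries, or with a Fisher p under 0.1; others are named to account for all 39. The members, lists and tests were chosen with earlier results of these data known.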

Additional observations from a re-analysis of the deposited data

How the results depend on the processing

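Absent calls depended strongly on which peaks were kept. In the order fold enrichment at or above the median, score at or above the median and lists cut to equal length, members absent from a whole group numbered 27, 29 and 12 in Nr O, 21, 23 and 27 in Nr G, 20, 23 and 27 in AC Br+6, and 20, 22 and 25 in AC MG. Mean members called per library became 7.33, 6.33 and 16.3 in Nr O, 12.3, 11 and 8 in Nr G, 11, 9.0 and 6.67 in AC Br+6, and 11.3, 11 and 7 in AC MG. So Nr O was lowest by fold enrichment and score and highest at equal length, where its lists were cut least. Genes meeting the 6-to-11 rule numbered 20, 17 and 26. Peaks in the first group alone numbered 1, 0 and 13 for Nr O against Nr G, and in the second alone 4, 3 and 2. For Nr O against AC Br+6 the second alone gave 3, 1 and 1, and the first alone 0, 0 and 11. For Nr G against AC MG the second alone gave 0, 0 and 1, and the first alone 0, 0 and 1. For AC Br+6 against AC MG the first alone gave 1, 0 and 0, and the second alone 0, 0 and 2. Requiring identical start and end in every library left 16 genes with 1 position in place of 29, and any overlap of at least 1 base gave 35. Counting the pair of loci with the same values once, chosen after seeing the data, left 38 genes.

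Leaving out 1 library at a time, genes meeting the rule ran from 28 to 36, members absent from Nr O from 9 to 13, from Nr G 2 to 5, from AC Br+6 0 to 4 and from AC MG 0 to 4. First alone and second alone ran from 1 to 5 and 2 to 12 for Nr O against Nr G, 0 to 1 and 4 to 10 for Nr O against AC Br+6, 0 to 4 and 0 to 4 for Nr G against AC MG, and 0 to 4 and 0 to 2 for AC Br+6 against AC MG. With 2 libraries left in a group, 0 calls are met more easily and at least 2 calls less easily, so part of this follows from the rule. The Fisher counts were 0 for stage and 0 for genotype in every alternative run, with genes called in 2 to 10 libraries (404) and with the replicate block included, but 110 of the 140 genes could not reach 0.05, so this says nothing about stability. The block's exact permutation test has 216 arrangements, and 1 gene, no member, had an unadjusted p under 0.05 for genotype. Depth is unknown, and ceilings of fold enrichment limit what strong peaks can show. The cause of these changes was not tested.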
